A study of Mus musculus with 4 samples.

Results

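Late proximal tubule (S3) barcodes were described across 4 single-cell RNA libraries of mouse kidney. A barcode stands for 1 droplet and is taken as 1 cell. Members were selected on 4 late markers: Cyp7b1, a sterol hydroxylase, Mep1b, a subunit of the brush border protease meprin, Slc22a19, an organic anion carrier, and Aadat, an aminotransferase of tryptophan and lysine breakdown. A member held at least 2 UMIs (unique molecular identifiers, 1 for each transcript caught) of these genes together, and more than of the early markers Slc5a12, Slc5a2, Slc7a7 and Slc7a8. It also held under 12 UMIs of Pecam1, Cdh5, Kdr and Tie1 per 10000 and none of the distal markers Slc12a1, Slc12a3, Umod and Egf. This rule found 109 of 10535 barcodes (1.03%). Since these counts chose the members, their levels are given below as a description only.

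All mice were C57BL/6J, aged 10 to 14 weeks, and the kidneys of each group were pooled, dissociated and selected with magnetic beads for CD31 and then for podoplanin. The groups were A2 HTN (hypertension induced by the pressor hormone angiotensin II), SS HTN (salt-sensitive hypertension), A2 Ctrl (saline) and SS Ctrl (normal diet), with 1 library each. The 2 control libraries share 1 deposited table and are told apart by the barcode ending alone. No source used here ties an ending to a model, so they are called control library 1 and control library 2, and their UMIs were summed as the control of both models. The study was aimed at lymphatic endothelial cells of the kidney. Tubule cells carry neither selected protein as a defining marker, and the members are what remained of them after selection.

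The proximal tubule takes back most of what the glomerulus filters. Its S3 segment is the straight part that runs into the outer medulla. It is known for the last uptake of glucose and amino acids, for secretion of organic anions, for glutathione breakdown at the brush border and for peroxisomes. The early S1 segment carries most of the bulk uptake of glucose, phosphate and protein.

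The A2 HTN library held 44 members of 2837 barcodes (1.55%, exact binomial 95% interval 1.13 to 2.08). In the SS HTN library there were 11 of 3284 (0.335%, 0.167 to 0.599). Control library 1 held 8 of 2406 (0.333%, 0.144 to 0.654) and control library 2 held 46 of 2008 (2.29%, 1.68 to 3.04). This order depends on the rule. With distal UMIs allowed the shares were 5.60% in A2 HTN and 6.43% in SS HTN, against 16.3% and 9.66% in control libraries 1 and 2. With cells thinned to 500 UMIs they were 1.22% and 0.446%, against 0.673% and 2.60%. Each group is 1 library of pooled kidneys, so no difference was tested and every interval here is one of counting error alone. Members held 47860 UMIs in the A2 HTN library and 18107 in the SS HTN library, with 6861 and 29665 in control libraries 1 and 2. The median member held 713, 984, 631.5 and 527.5 UMIs in the same order, against library medians of 1795, 1785.5, 973 and 557. Of the barcodes, 7 occurred in more than 1 library, none of them a member.

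The rule worked close to its limit. Of the 109 members, 43 held exactly 2 late UMIs and 66 held more, up to 11, and 80 held no early UMI. An early UMI was held by 13 of 44 A2 HTN and 8 of 11 SS HTN members. In control libraries 1 and 2 it was 0 of 8 and 8 of 46. Late UMIs led early ones by only 1 in 6, 5, 0 and 3 members in the same order. Just outside it, 94 barcodes passed both other gates with 1 late UMI and no early one. Among barcodes past both gates with at least 2 late UMIs, 5 had as many early as late UMIs, and 2 had more early ones. Cyp7b1 was found in 34 of 44 A2 HTN members, 8 of 11 SS HTN members, and 6 of 8 and 41 of 46 members of control libraries 1 and 2. It made up 59.3% of the 376 late UMIs and was the only one of the 4 genes in 30 members. Over all libraries it was found in 81.7% of members at a median of 645 UMIs, against 10.2% of 3625 endothelial marker barcodes, those at or above the limit of 12, at a median of 2575 UMIs. Aadat was found in 25, 10, 5 and 18 members of the A2 HTN, SS HTN and control libraries 1 and 2. Mep1b was found in 10, 4, 1 and 11 members and Slc22a19 in 9, 0, 1 and 13, so Slc22a19 was not detected in the SS HTN members.

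A few members were led by markers of another cell type. In 6 of the 109, the UMIs of endothelial, macrophage and dendritic, stromal and mural, and lymphocyte markers together reached or passed those of 39 proximal tubule markers that the rule did not use. They hold 23.9% of all members' UMIs over the 11049 genes used. In the A2 HTN library 3 such barcodes hold 28.1% of the members' UMIs. The deepest has 6251 UMIs with 42 of endothelial markers and 27 of proximal markers, the next has 5728 with 41 and 3, and the last has 1366 with 7 of other types and 5 of proximal markers, beside 31 UMIs of Mgp, a matrix protein of vessels and stroma. In the SS HTN library 1 barcode of 7219 UMIs holds 40.3% of the members' UMIs, with 51 endothelial and 9 proximal marker UMIs. In control library 1 a barcode of 1828 UMIs (27.1%) has 39 macrophage and dendritic marker UMIs and 144 of MHC class II genes, which present antigen, against 8 of proximal markers. In control library 2 a barcode of 1839 UMIs (6.25%) has 10 endothelial and 3 proximal marker UMIs. Without them, 41, 10, 7 and 45 members remained in the A2 HTN, SS HTN, control library 1 and control library 2 samples, with 34081, 10702, 4918 and 27579 UMIs. These 103 are called proximal-led members. They were set apart after the data were seen, and every comparison is given with and without the 6.

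**Figure D1:**
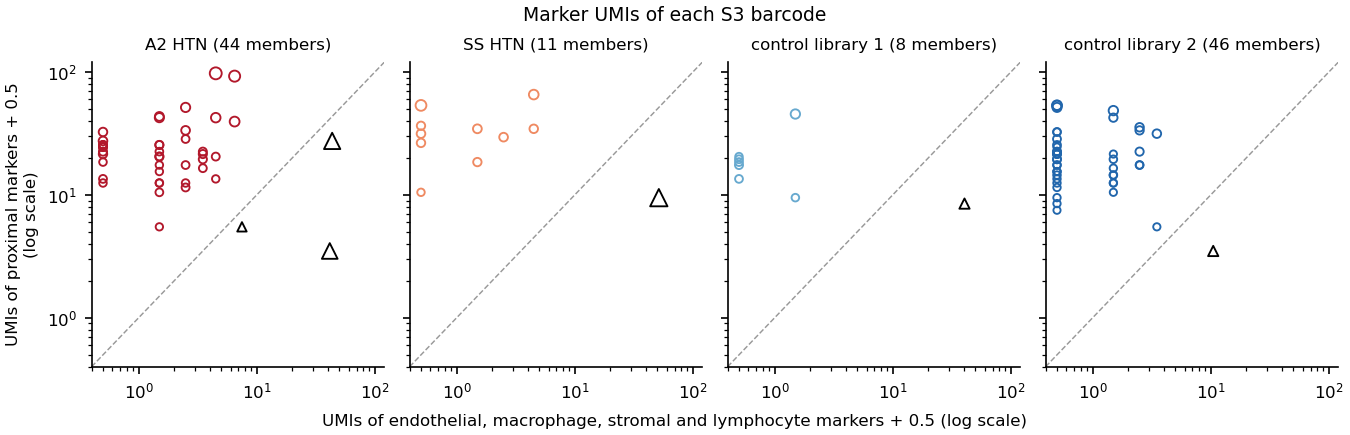
UMIs of proximal tubule markers (y axis) against UMIs of endothelial, macrophage, stromal and lymphocyte markers (x axis) in each member. Both have 0.5 added and are on log axes, with 1 panel per library. Symbol size grows with the barcode's UMIs. Open circles are the 103 proximal-led members, black triangles the 6 others, which lie on or below the dashed line of equality.

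The proximal-led members carried between 5 and 97 UMIs of proximal markers, with a median of 21, and 50 of them held no UMI of the 24 markers of other types. Levels are given as UMIs scaled to a total of 1000000 per library (CPM). Their summed level of 20 late markers outside the rule was 13028 CPM in the A2 HTN library and 9251 in the SS HTN library, with 11997 and 15555 in control libraries 1 and 2. Early proximal barcodes were chosen by the same gates with the early markers leading. Those not led by another type stood at 6984, 9940, 8783 and 10480 CPM in the same order. Other late markers thus stood above the early barcodes in 3 of 4 libraries, and in the SS HTN library they did not. The late and whole proximal markers also set proximal-led barcodes apart, so their levels there are partly fixed by that choice. In all members, the late markers summed to 9446, 5580, 9191 and 14617 CPM in the same order. All early barcodes held 6984, 4563, 6138 and 9411 CPM of them. The 7 proximal-led members of control library 1 held 16673 CPM of whole proximal and 8133 CPM of early markers, against 15306 and 7969 CPM in endothelial marker barcodes of that library, so its members stood little above that background in these lists. Slc5a1, the high-affinity sodium-glucose transporter known from S3, had 2 UMIs in all 109 members. The summed level of 16 early markers was 7541, 7382, 8133 and 6164 CPM in the proximal-led members, so early transcripts were present in each library. Early barcodes not led by another type held 15439, 14978, 5709 and 14447 CPM. In control library 1 the S3 members thus held more of the early markers than the early barcodes did.

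Endothelial markers, all 10 measured, summed to 1643 CPM in the proximal-led A2 HTN members, 934 in the SS HTN members, 0 in control library 1 and 363 in control library 2. With all members they were 3036, 3404, 0 and 680, and in endothelial marker barcodes 16875, 12030, 2879 and 13957. Macrophage and dendritic markers, 4 of 10 measured, were at 88.0, 0, 203 and 218 CPM in the proximal-led members, and at 5929 in all members of control library 1. Stromal and mural markers, 9 of 10 measured, lay between 93.4 and 363 CPM. The endothelial marker barcodes themselves held 387 CPM of the late markers in the A2 HTN library and 730.4 in the SS HTN library, against 7201 and 1785 in control libraries 1 and 2. In proximal-led members endothelial markers were thus higher in both hypertension libraries, and late markers in endothelial marker barcodes were highest in control library 1. Their part in the differences between libraries was not tested.

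**Figure D2:**
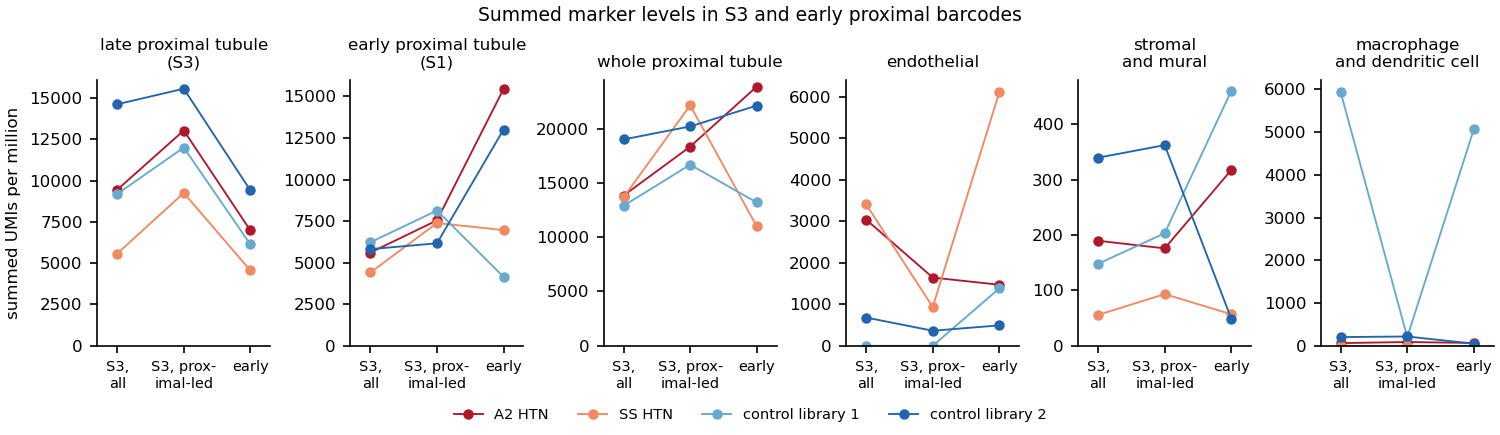
Summed CPM of 6 marker lists in all members, in proximal-led members and in all early proximal barcodes, 1 line per library. Without the 6 barcodes led by another type, the macrophage and dendritic level of control library 1 is 203 in place of 5929 CPM.

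Against early proximal barcodes of the same library the members differed in named segment genes, a contrast the rule itself used, so it is a description. Barcodes led by another type were left out on both sides. Of the 20 late markers 16 reached 20 UMIs over both sides, and 15 of these were higher in S3 barcodes when libraries were summed, 8 of them at least 2-fold. Of all 2375 genes tested, 49.9% were higher with libraries summed, 5.52% at least 2-fold higher and 7.66% at least 2-fold lower. The median log2 ratio of the late markers, of CPM + 10, was 1.16 with libraries summed, against -0.01 over all genes, and 0.69 as a mean of the ratios within libraries, against 0.03. By a stricter rule, at least 2-fold on average and the same direction in each library, 3.92% of all genes were higher and 5.43% lower, and 2 of the 16 late markers were higher. With all members the stricter rule gave 2.73% and 5.35% of 3007 genes.

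Slc7a13, the S3 aspartate and glutamate transporter, had 17, 6, 3 and 31 UMIs in S3 barcodes of the A2 HTN, SS HTN, control 1 and control 2 libraries, against 8, 0, 0 and 14 in early barcodes. Its summed log2 ratio was 1.81 (95% interval 1.13 to 2.64), and it was higher in each library. Atp11a, a phospholipid flippase, had 54, 5, 15 and 62 UMIs in S3 barcodes against 18, 3, 9 and 36 in early ones (log2 1.51, 1.10 to 1.98), also higher in each library. They were the only late markers with this direction in all 4. Rnf24, a membrane RING finger protein, had 22, 1, 4 and 41 UMIs against 3, 2, 0 and 2 (log2 3.58, 2.65 to 5.13). Slc6a18, a glycine transporter of the late segment, had 46, 6, 8 and 44 UMIs against 8, 5, 2 and 22 (log2 1.95, 1.42 to 2.56). Both were higher in 3 libraries and lower in the SS HTN library. Fut9, a fucosyltransferase, went against the list: it had 82, 20, 10 and 47 UMIs in S3 barcodes and 207, 26, 3 and 135 in early ones (log2 -0.73, -1.01 to -0.46), and was higher in control library 1 alone.

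**Figure D3:**
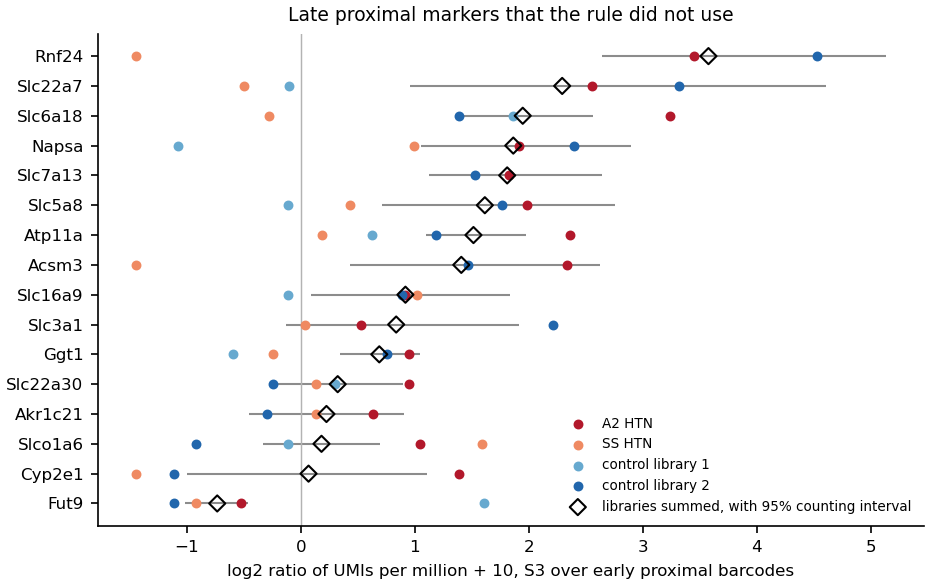
Log2 ratio of S3 over early proximal barcodes (CPM + 10, proximal-led barcodes) for 16 late markers outside the rule. Dots are single libraries, left out where either side has 0 UMIs; diamonds are the libraries summed, with 95% counting intervals. Fut9 is the only diamond below 0.

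Among 14 early markers tested, 12 were lower in S3 barcodes with libraries summed and 8 of them at least 2-fold, with a median log2 ratio of -1.15. Of the 14, 3 were lower in each library and 1 was higher in each. In control library 1 the summed early level was higher in S3 barcodes (8133 against 5709 CPM). Adra1a, an alpha-1 adrenergic receptor, had 2 UMIs in S3 barcodes and 36 in early ones over all libraries, and was lower in each. Nox4, a NADPH oxidase of the proximal tubule, had 11, 0, 2 and 6 UMIs against 133, 8, 0 and 38, so control library 1 went the other way. Slc34a1, the main phosphate transporter, had 77, 29, 10 and 54 UMIs against 294, 57, 10 and 185 (log2 -1.19, -1.45 to -0.95) and was lower CPM in each library. Gpx3, the secreted glutathione peroxidase, was lower in each library as well, with 462 against 1308 UMIs (log2 -1.01, -1.17 to -0.86). Dab2, an adaptor of megalin uptake, had 137 against 384 UMIs (log2 -0.996, -1.29 to -0.72) and was lower in all 4.

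Several transport and peroxisome genes stood higher in S3 barcodes of each library. Slc27a2, a fatty acid transporter and acyl-CoA synthetase, had 88, 19, 11 and 64 UMIs against 62, 4, 6 and 54 in early barcodes (log2 1.01, 0.68 to 1.36). Abcc2, the apical export pump MRP2, had 112, 86, 15 and 74 UMIs against 106, 27, 10 and 68 (log2 0.93, 0.67 to 1.19). Mep1a, the partner subunit of Mep1b in meprin, had 39 against 21 UMIs (log2 1.34), and Crot, the peroxisomal carnitine octanoyltransferase, 26 against 12 (log2 1.52). Gclc, the catalytic subunit of the first enzyme of glutathione synthesis, had 44 against 19 UMIs (log2 1.64, 0.89 to 2.56). As whole lists, glutathione and xenobiotic genes (17 tested, median 0.03) and fatty acid oxidation and peroxisome genes (23 tested, median -0.06) lay near the median of all genes, and amino acid and peptide transporters and peptidases (15 tested) had a median of 0.69.

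In A2 HTN members against control members, Hoga1, Gss and Nhs were higher and Gclc, Slc8a1 and Wnk1 lower, once the barcodes led by another type were left out. The comparison asks what angiotensin II hypertension does to the transcripts of these cells. Of 581 genes with at least 20 UMIs over both sides, 4.48% were at least 2-fold higher and 5.34% at least 2-fold lower. With all members it was 15.6% and 9.26% of 842 genes. The median log2 ratio of all genes was -0.02 in proximal-led and -0.11 in all members. Without control library 2, 51 of 255 genes were at least 2-fold higher and 18 lower in proximal-led members, and without control library 1, 25 of 517 were higher and 33 lower. Control library 1 holds 4918 UMIs in these members against 34081 in A2 HTN. Without control library 2, genes high in A2 HTN alone thus passed the minimum count at a lower CPM.

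Hoga1, the mitochondrial aldolase that ends hydroxyproline breakdown, stood at 880.3 CPM in proximal-led A2 HTN members (30 UMIs in 18 cells). It was at 280.3 in SS HTN members, 0 in control library 1 and 290.1 in control library 2. Over the summed control its log2 ratio was 1.80 (0.68 to 3.17). Gss, glutathione synthetase, was at 646 CPM in A2 HTN, 0 in SS HTN, 203 in control library 1 and 181 in control library 2 (log2 over control 1.75, 0.46 to 3.40). Nhs, which takes part in actin remodelling, was at 2142 CPM in A2 HTN and 1215 in SS HTN, against 813 and 761 in the control libraries (log2 1.47, 0.80 to 2.19). For all 3 genes the A2 HTN library was the highest of the 4. Ranbp3l, a Ran-binding protein, was at 646 CPM in A2 HTN and 1215 in SS HTN, against 0 and 254 in the control libraries (log2 A2 HTN over control 1.54, 0.31 to 3.05). The other named genes, 16 to 22 UMIs in A2 HTN, were the MAP kinase kinase Map2k5, the carrier Slc22a23, the ubiquitin ligase Wwp1, Pakap.1, the actin gene Actb and the actin-binding peptide gene Tmsb4x. Their log2 ratios lay between 1.47 and 1.85, and Hoga1, Ranbp3l, Map2k5, Slc22a23 and Wwp1 had 0 UMIs in control library 1, which holds 4918 UMIs.

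Gclc was at 117 CPM in proximal-led A2 HTN members (4 UMIs in 4 cells) and 561 in SS HTN members, against 813 and 1088 in control libraries 1 and 2. Its log2 ratio over control was -3.05 (-5.11 to -1.67). The A2 HTN value was the lowest of the 4, below each control library. In all early barcodes Gclc had 4 UMIs in A2 HTN and 14 in control (log2 -1.996). Slc8a1, the sodium-calcium exchanger best known from the distal convoluted tubule, was at 117 CPM in A2 HTN and 2429 in SS HTN, against 1627 and 471 in the control libraries (log2 -2.37, -4.46 to -0.89). Wnk1, a kinase that controls salt transport in the distal tubule, had 4 UMIs in A2 HTN and 5 in SS HTN, against 2 and 14 in the control libraries (log2 -1.98, -4.11 to -0.44). The 5 distal convoluted markers measured other than Slc8a1 include Wnk1, which held all 4 of their UMIs in A2 HTN. They summed to 117 CPM in A2 HTN (4 UMIs) and 934 in SS HTN (10 UMIs), against 610.0 and 725 in the control libraries (3 and 20 UMIs). Their part in these ratios was not tested.

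Also named lower were the chromatin genes Jarid2 and Bcl7a, the exocyst subunit Exoc4, the casein kinase Csnk1g3, Ccser1 and AI314278, with log2 ratios between -3.32 and -1.62. Keg1, an acyltransferase-like gene of the proximal tubule, had 11 UMIs in A2 HTN and 10 in SS HTN, against 0 and 54 in the control libraries, so the control libraries gave opposite directions.

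Medians of the proximal lists lay between -0.61 and 0.45, against -0.02 for all genes. Late markers had 4 of 13 tested higher and 9 lower, with a median log2 ratio of -0.43, and the 2 at least 2-fold lower were Slc7a13 (-1.05, -2.001 to -0.19) and Rnf24 (-1.09, -1.91 to -0.34). Without members holding any marker of another type, Rnf24 in all members was at 0.016. Slc7a13 stood at 499 CPM in A2 HTN and 561 in SS HTN, against 610.0 and 1124 in the control libraries. All 5 tested genes of gluconeogenesis, fructose and ammonia handling were lower, none 2-fold, with a median of -0.61. Of 10 fatty acid oxidation and peroxisome genes 6 were lower and 2 at least 2-fold, with a median of -0.25. Acot12, an acetyl-CoA thioesterase, had 6 UMIs in A2 HTN and 8 in SS HTN, against 0 and 16 in the control libraries (log2 -1.43, -3.13 to -0.06), so the control libraries gave opposite directions. Organic anion and cation transporters (9 tested, 1 at least 2-fold higher) had a median of 0.19, and sodium, phosphate, sugar and monocarboxylate transport (10 tested) 0.12, with Slc13a3, a dicarboxylate transporter, at 1.28 (0.30 to 2.40). Slc13a3 stood at 909.6 CPM in A2 HTN and 934 in SS HTN, against 813 and 290.1 in the control libraries, so its ratio rests on control library 2. Glutathione and xenobiotic genes (7 tested) had a median of 0.13, with Gclc the 1 gene at least 2-fold lower. None of the 9 renin-angiotensin genes measured reached 20 UMIs.

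With all 44 A2 HTN members the highest genes were of another kind. S100a6, a calcium-binding protein, had 30 UMIs in A2 HTN and 0 in control, at least 7.63-fold higher against 3 counts over the group. Sox17, an endothelial transcription factor, had 29 UMIs against 0, at least 7.37-fold higher. Of the 10 genes named higher, 8 had over 50% of their UMIs in the 6 barcodes led by another type, S100a6 with 93.3% and Sox17 with 86.2%. All 46 tested ribosomal protein genes were higher (median log2 ratio 1.59), and in proximal-led members 5 of 6 tested were higher, with a median of 0.46. The list of tubule injury and repair genes had 6 of 6 tested higher, median 2.02, and proximal-led members left 2 tested, Igfbp7 (0.34) and Itgb6 (0.79). H2-Eb1 of MHC class II had 0 UMIs in A2 HTN and 42 in control, at least 18.4-fold lower, but 35 of the 42 lay in the 1 macrophage-led barcode of control library 1, and the proximal-led control members held 7. Of the 10 genes named lower, 4 had over 50% of their UMIs in barcodes led by another type, and no MHC class II gene was tested among proximal-led members.

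**Figure D4:**
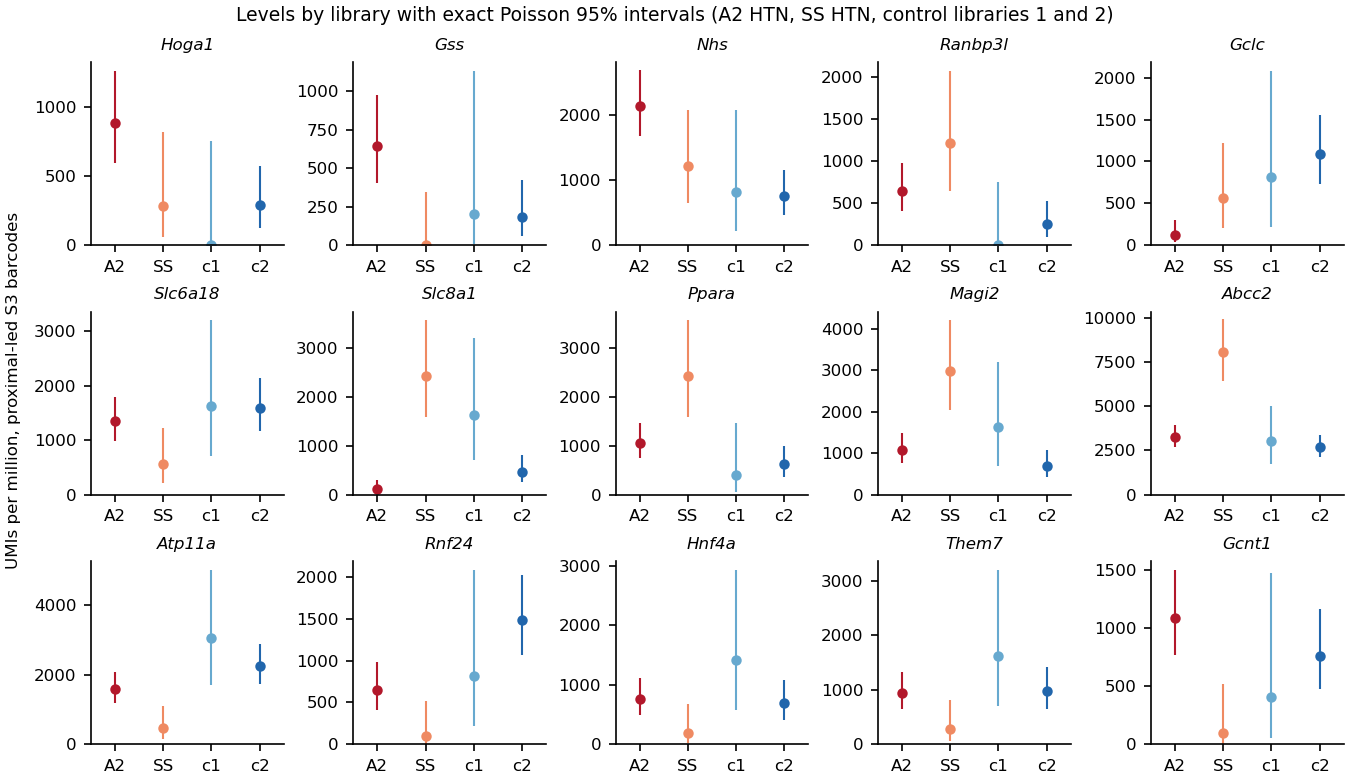
CPM of 15 genes in proximal-led members, for the A2 HTN, SS HTN, control 1 and control 2 libraries, with exact Poisson 95% intervals that cover counting error only. Hoga1, Gss and Nhs are highest in A2 HTN; Abcc2, Ppara and Magi2 are highest in SS HTN.

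In SS HTN members against control members, Abcc2, Ppara and Magi2 were higher and the late markers Rnf24, Atp11a and Slc6a18 lower. This comparison asks the same of salt-sensitive hypertension and rests on 10 proximal-led SS HTN members. Of 300 genes tested 6% were at least 2-fold higher and 16.7% at least 2-fold lower, and the median of all genes was -0.10. With all members it was 20.9% and 27% of 426 genes, with a median of -0.39. The minimum count was on both sides together, and proximal-led members held 10702 UMIs in SS HTN and 32497 in control. A gene high in control alone thus passed at a lower CPM than a gene high in SS HTN alone. The part of this in the split of higher and lower genes was not tested.

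Abcc2 stood at 8036 CPM in proximal-led SS HTN members, with 86 UMIs in 9 of 10 cells. It was at 3286 in A2 HTN, 3050.0 in control library 1 and 2683 in control library 2, and its log2 ratio over control was 1.55 (1.11 to 1.997). The SS HTN level was thus above each of the others, which lay close together. In early barcodes not led by another type the Abcc2 level was highest in SS HTN as well, so this order was not particular to S3 members. Ppara, the nuclear receptor that drives fatty acid oxidation genes, was at 2429 CPM in SS HTN, with UMIs in all 10 cells, and 1056 in A2 HTN, against 407 and 616 in the control libraries (log2 2.04, 1.15 to 2.99). Magi2, a junction scaffold protein, was at 2990.1 CPM in SS HTN and 1086 in A2 HTN, against 1627 and 689 (log2 1.84, 1.06 to 2.64). Ranbp3l gave 2.44 (1.06 to 4.06), with 13 UMIs in 5 SS HTN cells. Slc8a1 gave 1.89 (1.02 to 2.81), opposite to A2 HTN over the same control. Cyp4b1, a cytochrome P450 of the proximal tubule, was at 1775 CPM in SS HTN and 646 in A2 HTN, against 1423 and 653 in the control libraries (log2 1.20, 0.26 to 2.13), so it stood little above control library 1. Kap, an androgen-regulated kidney protein, and Gpx3 were under 2-fold higher, at 0.60 (0.08 to 1.11) and 0.53 (0.14 to 0.92). The cytoskeletal linker Ank3 (1.08) and the ribosomal protein Rpl28 (1.44) completed the rule.

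Atp11a stood at 467 CPM in proximal-led SS HTN members (5 UMIs) and 1584 in A2 HTN members, against 3050.0 and 2248 in the control libraries (log2 over control -2.32, -4.01 to -1.06). Rnf24 had 1 UMI in SS HTN and 22 in A2 HTN, against 4 and 41 in the control libraries (log2 -3.75, -9.22 to -1.34). Slc6a18 had 6 UMIs in SS HTN and 46 in A2 HTN, against 8 and 44 (log2 -1.50, -3.02 to -0.29). For all 3 the SS HTN level was the lowest of the 4 libraries. Of the 11 SS HTN members, 8 held an early rule UMI and 5 had late UMIs leading by only 1. The late rule genes summed to 2897 CPM in proximal-led SS HTN members, also the lowest of the 4. The part of this in the lower late markers was not tested. In early barcodes not led by another type, on few UMIs, Atp11a in SS HTN was also below both control libraries. Rnf24 and Slc6a18 were above both there. Hnf4a, a nuclear receptor that keeps proximal tubule identity, had 2 UMIs in SS HTN and 26 in A2 HTN, against 7 and 19 (log2 -2.04, -5.22 to -0.10). Gcnt1, which branches O-glycans, had 1 UMI in SS HTN and 37 in A2 HTN, against 2 and 21 (log2 -2.79, -8.29 to -0.30). Slc9a8, a sodium-proton exchanger, the thioesterase-like Them7, the kinase Lrrk2, Jarid2, Rnf169 and Ccser1 were also named lower, at 1 to 3 SS HTN UMIs each and log2 ratios between -2.73 and -1.82.

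Among lists, late markers had 8 of 10 tested lower in SS HTN, 5 of them at least 2-fold, with a median log2 ratio of -1.07 in proximal-led and -1.63 in all members. Slc7a13 was at -0.89 with an interval from -2.44 to 0.37. Amino acid and peptide transporters and peptidases were all lower, 5 of 5 tested and 2 at least 2-fold, with a median of -0.90. Sodium, phosphate, sugar and monocarboxylate transport had 5 of 7 higher (median 0.46), 2 at least 2-fold higher and 2 at least 2-fold lower. Fatty acid oxidation and peroxisome genes had 4 of 6 lower (median -0.23) although Ppara was higher. The few transcription factors tested split, with 2 of 4 at least 2-fold lower, 1 at least 2-fold higher and a median of -0.44.

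With all members the highest genes came largely from 1 barcode. Ptn, a heparin-binding growth factor, had 36 UMIs in SS HTN, all in 1 cell, and 0 in control, at least 24.2-fold higher. All 10 genes named higher had over 50% of their UMIs in barcodes led by another type, and so had 5 of the 10 named lower. All 41 ribosomal protein genes tested were higher, with a median of 2.84, against 2 tested and a median of 0.81 in proximal-led members. Without control library 2, which holds most control UMIs, genes past 2-fold numbered 9 of 50 tested in proximal-led members, in place of 68 of 300, and 7 of the 9 were higher. Against control library 1 alone the SS HTN calls lower thus numbered 2.

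In A2 HTN members against SS HTN members, which share no control, Gcnt1, Hnf4a, Atp11a and Rnf24 were higher and Slc8a1, Magi2, Abcc2 and Ppara lower. The study sought differences between the models. Of 308 genes tested in proximal-led members 14.3% were at least 2-fold higher and 6.17% at least 2-fold lower, with a median of 0.09. With all members it was 16% and 14.3% of 568 genes, with a median of 0.12. The minimum count was on both sides together, and proximal-led members held 34081 UMIs in A2 HTN and 10702 in SS HTN. A gene high in A2 HTN alone thus passed at a lower CPM than a gene high in SS HTN alone. The part of this in the split of higher and lower genes was not tested. The values per library are those given above.

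Gcnt1 had a log2 ratio of 3.40 (0.97 to 8.88), with 37 against 1 UMI, Rnf24 2.66 (0.16 to 8.16) and Hnf4a 1.97 (0.03 to 5.15), with 26 against 2 UMIs. Gss had 22 UMIs in A2 HTN and 0 in SS HTN, at least 2.3-fold higher against 3 counts. The DNA methyltransferase Dnmt3a had 25 against 1 UMI (2.85, 0.36 to 8.33), and the cohesin loader Nipbl 22 against 1 (2.66, 0.16 to 8.16). The splicing protein Son had 44 against 4 UMIs (1.76, 0.33 to 3.73), and the oxidoreductase Wwox 46 against 4 (1.83, 0.40 to 3.79). These ratios rest on 0 to 4 SS HTN UMIs, and their intervals are wide. The genes reached the minimum count mainly through their A2 HTN UMIs. Slc9a8 (2.08) and BC005561 (2.73) completed the rule.

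Slc8a1 was the lowest at -4.26 (-6.35 to -2.84), with 4 UMIs in 4 of 41 A2 HTN cells and 26 UMIs in 8 of 10 SS HTN cells. Abcc2 was at -1.29 (-1.71 to -0.87), with 112 UMIs in 36 A2 HTN cells against 86 in 9 SS HTN cells. Magi2 was at -1.45 (-2.18 to -0.73), Cyp4b1 at -1.45 (-2.41 to -0.49) and Ppara at -1.19 (-1.97 to -0.42). The receptor tyrosine kinase Erbb4, Keg1, the adhesion protein Lpp, Adap2 and the tau gene Mapt, with 10 to 16 SS HTN UMIs each, lay between -1.50 and -1.14.

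Amino acid and peptide transporters and peptidases had 5 of 6 tested higher in A2 HTN, 4 at least 2-fold, with a median log2 ratio of 1.16, and 1.12 with all members. Late markers had 6 of 9 higher, 3 at least 2-fold (Rnf24, Atp11a at 1.74 and Slc6a18 at 1.25), with a median of 0.36. Sodium, phosphate, sugar and monocarboxylate transport had 7 of 8 lower, none 2-fold, with a median of -0.32. Transcription factors had 4 of 6 higher, 3 at least 2-fold, with a median of 0.998 and Ppara the 1 at least 2-fold lower. Ribosomal protein genes had a median of -1.16 in all members, with 43 of 47 lower, and -0.25 over 3 tested in proximal-led members.

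**Figure D5:**
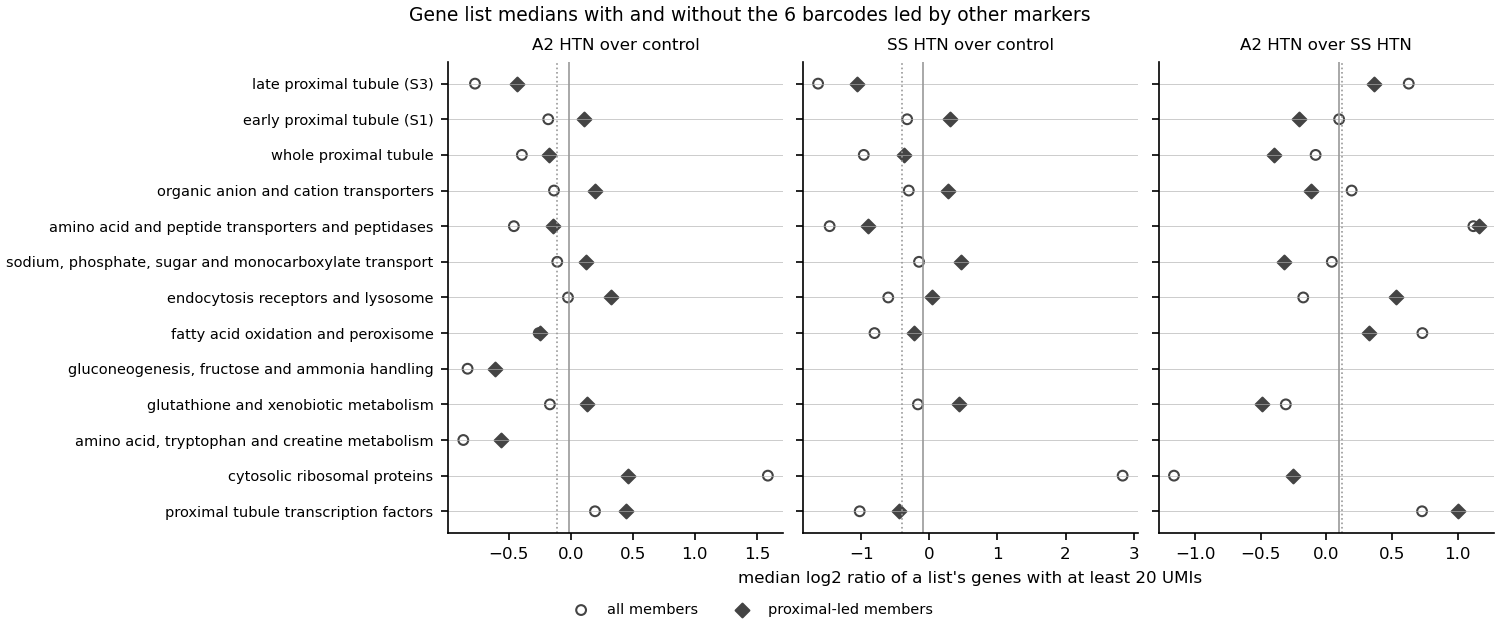
Median log2 ratio of each gene list with at least 3 tested genes in A2 HTN over control, SS HTN over control and A2 HTN over SS HTN. Open circles are all members and filled diamonds proximal-led members; vertical lines are the median of all tested genes (dotted for all members, solid for proximal-led). In A2 HTN over control ribosomal protein genes lie at 0.46 in proximal-led and 1.59 in all members, and late markers lie at -1.07 in SS HTN over control in proximal-led members.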

How the data were processed

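Cells came from pooled kidneys and went through a droplet kit that reads the 3' end, per the labels' protocols. Among the tools in the submitters' processing notes are Seurat 4.1 and Cell Ranger 7.0.0, with mm10 as the build and no roles given. Raw UMI counts of each gene and barcode were deposited, with no cell annotation and no mitochondrial genes. The 11049 genes listed in all 3 tables used hold 98.7% of A2 HTN, 99.0% of SS HTN and 99.1% of control UMIs. A further table, joining both hypertension libraries, served as an alternative.

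Members were found by the marker rule, and their UMIs were summed per library and scaled to a total of 1000000 (CPM). Ratios were taken as log2 after adding 10 CPM to each side, so differences of genes with few UMIs are understated. Its 95% interval, by the exact method of Clopper and Pearson on the split of UMIs, is for the plain ratio without the 10, so it can lie beyond the ratio printed. A gene was tested at 20 UMIs over both sides and called at 2-fold. Where the sides differ in UMIs, this minimum favours genes high on the deeper side, so the split of calls into higher and lower can depend on depth. All genes of the member rule were left out, the endothelial and distal ones as well as the late and early ones. With 1 library per group there is no p-value, and nothing says that a library stands for more than its pool. UMIs are counted per droplet, so free RNA and doublets remain in them. No doublet caller was run; an alternative leaves out the 5% of members with most UMIs. Each comparison with control uses the same summed control libraries, so the 2 comparisons are not independent.

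The members, marker lists and gene lists were chosen with earlier results of these data known. Named genes were the 10 highest and 10 lowest ratios whose interval leaves out a ratio of 1 and which point the same way against each control library, leaving out rule genes, predicted genes and Rik clones, plus the late markers and the 2 highest, 2 lowest and most counted members of a list. Keg1 was named as such a list member. Not every gene the rule names is reported here. The rule was applied to all members and again to proximal-led members. Genes with near-identical copies, as among ribosomal protein genes, are uncertain. The intervals were tested on simulated counts that held counting error alone, so that test does not cover spread between cells or libraries. Python 3.11.15, numpy 2.4.6, scipy 1.17.1, pandas 2.3.3 and matplotlib 3.10.9 were used.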

Additional observations from a re-analysis of the deposited data

Results flagged for a closer look

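Slc8a1, the sodium-calcium exchanger, moved in opposite directions in the models, in proximal-led members, against each control library. Its log2 ratio over control was -2.37 in A2 HTN and 1.89 in SS HTN, and A2 HTN over SS HTN was -4.26. Of 298 genes tested against control in both models, it was the 1 gene at least 2-fold apart from control in opposite directions. The difference was not tested, because each model is 1 library. The other 5 distal convoluted markers measured summed to 117 CPM (UMIs scaled to a total of 1000000) in A2 HTN and 934 in SS HTN. The control libraries stood at 610.0 and 725 CPM. Wnk1, one of these markers, held all of their A2 HTN UMIs. The part of these markers in the result was not tested.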

How the results depend on the processing

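No paired analysis was possible because each group is 1 library and the replicate number only names it. Genes past 2-fold numbered 209 in A2 HTN over control, 204 in SS HTN over control and 172 in A2 HTN over SS HTN with all members. In that order they were 5187, 5519 and 6108 with no minimum count, 30, 25 and 32 with cells thinned to 500 UMIs, 94, 36 and 77 with at least 3 late UMIs, 27, 34 and 10 without members holding another type's marker, and 79, 62 and 56 without the 5% of members with most UMIs. Late above 2 times early UMIs gave 79 in SS HTN over control and 103 in A2 HTN over SS HTN, and A2 HTN over control had 133 with the joined hypertension counts. Leaving out a control library gave 147 to 224 in A2 HTN and 61 to 185 in SS HTN. Proximal-led members, an alternative chosen after seeing the data, gave 57, 68 and 63, and 61, 59 and 63 without the deepest member. In proximal-led members, 58 genes in A2 HTN over control and 54 in SS HTN over control were past 2-fold without control library 1. Without control library 2 these were 69 and 9 genes. The number of genes tested changed as well, so the counts alone do not compare. In A2 HTN over SS HTN the calls were 30.3% of genes tested with all members, 29.1% thinned and 20.5% in proximal-led members. In A2 HTN over control they were 24.8%, 13.7% and 9.81%, and 34.1% in all members without control library 2. In SS HTN over control they were 47.9%, 26.6% and 22.7%, and 44.2% in all members without control library 2. The share of calls that were higher was 62.7% in A2 HTN over control, and between 43.1% (proximal-led, without control library 1) and 74.1% (without control library 2) under alternatives. In SS HTN over control it was 43.6%, 61.2% centred on the median of all genes, 56.4% as a mean over cells, 73.8% without control library 2, and between 20% (thinned) and 77.8% (proximal-led, without control library 2) over all alternatives. In A2 HTN over SS HTN it was 52.9%, and between 41.4% (centred) and 90% (without members holding another type's marker). Where a minimum count was used, these shares can also depend on the UMIs of each side, since it was on both sides together. With at least 3 late UMIs the share of members was 0.916% in A2 HTN and 0.183% in SS HTN, against 0.0831% and 1.59% in control libraries 1 and 2, and thinned it was 0.446% in SS HTN and 0.673% in control library 1. S3 over early calls were 82 higher and 161 lower, 57 lower thinned, and 83 to 159 higher and 103 to 217 lower with 1 library left out. Signs turned for the ribosomal median in A2 HTN over SS HTN (1.30 with at least 3 late UMIs, 1.36 with late above 2 times early, 0.055 without the deepest 5%), in SS HTN over control (-0.82, late above 2 times early) and in A2 HTN over control (-0.082 to 2.59 with 1 control library left out), for the transcription factor median in SS HTN over control (0.29 with at least 3 late UMIs, 0.039 without members holding another type's marker), for Rpl23 (0.89 with at least 3 late UMIs, 0.68 with late above 2 times early) in A2 HTN over SS HTN, and in A2 HTN over control for Tmsb4x (-0.99 to 4.85 with 1 control library left out) and Rnf24 (0.016 without members holding another type's marker). The cause was not tested. Of results past 2-fold, 930 of 934 alternative values for 100 gene ratios and 134 of 141 for 16 list medians kept their sign. This tally is no measure of robustness. A pseudocount of 1 or no minimum count cannot turn the sign of a gene's ratio. Many genes were named because they point the same way against each control library. Genes under 20 UMIs in an alternative have no value there, up to 37 genes in 1 setting of A2 HTN over control. Depth limits the SS HTN and control library 1 members most, and a gene at 0 there was not detected, which does not show that it was absent.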
